A study of Mus musculus with 2 samples.

Results

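The 9 genes described here, Isg15, Ifit2, Ifit3, Irf7, Irf9, Stat2, Rtp4, Ifi27 and Bst2, are interferon-stimulated genes, read in single cells of mouse gliomas. They were chosen by name, with earlier results of these data known, so the choice was not independent of the data. All 9 were listed in both count tables, out of 18366 genes listed in either table and 16859 in both. The cells came from C57BL/6 mice in which PDGFB, a growth factor ligand of oligodendrocyte precursor cells, had been transferred into the embryonic telencephalic ventricles in utero. Tumours were collected about 40 days after birth, tumour cells were enriched by sorting for GFP, and tumours were pooled 2 by 2, so that each of the 2 droplet libraries, here pool 1 and pool 2, holds cells of 2 tumours that were not told apart. Both pools carry PDGFB, and there was no untreated or interferon-treated group, so every comparison below is between cells within the pools.

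Interferons are secreted signals that cells release on sensing foreign or misplaced nucleic acid. Type I interferon binds a receptor at the cell surface, whose kinases phosphorylate Stat2. Stat2 joins Irf9 in a complex that enters the nucleus, binds interferon-stimulated response elements near gene starts, and switches on a large set of antiviral genes. Some of these genes are nearly silent in unstimulated cells, and others are transcribed at a steady level without added interferon.

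Transcripts were counted as UMIs (unique molecular identifiers, each marking 1 captured transcript). Barcodes with 500 genes or more and no more than 15% of UMIs from mitochondrial genes were kept, which left 3506 cells of pool 1, with a median of 7440 UMIs, and 3278 cells of pool 2, with a median of 11272 UMIs. The pools shared 4 cell barcodes. Clustering without interferon genes gave 13 clusters, of which 1 was microglia-like (15 and 16 cells), 1 astrocyte-like (8 and 8 cells) and 1 mature oligodendrocyte-like (4 and 19 cells), while the others received no name from the markers used. Cells outside the microglia-like cluster are called glial below. The oligodendrocyte precursor markers Pdgfra, Cspg4, Olig2 and Sox10 were all detected in the glial cells. Free RNA from microglia was gauged by C1qa, a complement gene of these cells. At 2000 UMIs per cell, C1qa had a UMI in 3 of 3110 glial cells of pool 1 (0.0965%) and 3 of 2861 of pool 2 (0.105%), against 7 of 7 and 12 of 13 microglia-like cells. Median depth before thinning was 8678 and 12462 UMIs in these glial cells, and 8902 and 7124 in the microglia-like cells. C1qb had a UMI in 7 and 2 of the glial cells, and Tyrobp in 5 and 0. As microglia-like cells were few, these counts do not gauge free RNA from the glial cells themselves. The same measure was not available for the members, since no cell type here is known to lack them.

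The members lie on 8 chromosomes of GRCm38, by GENCODE vM21. Isg15 is at chr4:156199424-156200818, Irf7 at chr7:141262706-141266481, Bst2 at chr8:71534255-71537456, Stat2 at chr10:128270559-128292849, Ifi27 at chr12:103434211-103440239 and Irf9 at chr14:55603571-55610030. Rtp4 is at chr16:23520291-23614222, and Ifit2 (chr19:34550694-34576419) and Ifit3 (chr19:34583531-34588731) are neighbours on chromosome 19. Irf9 overlaps Rnf31 on the same strand, Rtp4 overlaps Gm45338 on the same strand and Masp1 on the other, and Irf7 meets Phrf1 on the other strand. Ifit3 has a near-identical copy, Ifit3b, so the division of reads between these genes is uncertain.

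RefSeq promoter sequences (GRCm38.p6) were at hand for 7 of the 9 members, in 9 windows of 250 bases before a gene start. Rtp4 and Ifi27 had none. The letters GAAANNGAAA, searched on both strands, are the core of the interferon-stimulated response element. They stood in 4 of these 9 windows, those of Isg15, Ifit3, Stat2 and Bst2, and in 978 of all 32851 mouse windows of that length (2.98%). The shorter letters TTCNNNGAA, the core of the gamma-activated element, stood in 2 of the 9 windows (Ifit2 and Bst2) and in 7.02% of all windows. The letters GAAANNGAAA were in none of the windows of Ifit2, Irf7 and Irf9, which says only that these letters are not in those stretches. The 4 windows with a match and both windows of Ifit2 are shown so that they can be set beside the members' levels; Irf7 and Irf9, induced in the data that follow, had no match either. Capitals mark each match to GAAANNGAAA or its reverse complement, and overlapping matches run together.
Isg15 (chr4:156200819-156201068, minus strand): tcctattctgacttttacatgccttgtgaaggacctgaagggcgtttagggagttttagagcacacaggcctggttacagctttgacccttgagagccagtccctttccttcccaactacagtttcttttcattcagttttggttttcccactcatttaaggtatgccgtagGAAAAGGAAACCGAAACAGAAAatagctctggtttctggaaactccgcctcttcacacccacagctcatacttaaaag
Ifit3 (chr19:34583279-34583528, plus strand): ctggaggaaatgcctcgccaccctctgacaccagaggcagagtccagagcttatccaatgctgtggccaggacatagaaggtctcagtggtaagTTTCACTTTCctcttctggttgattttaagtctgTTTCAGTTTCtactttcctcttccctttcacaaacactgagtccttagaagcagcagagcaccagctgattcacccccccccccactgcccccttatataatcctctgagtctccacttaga
Stat2 (chr10:128270248-128270497, plus strand): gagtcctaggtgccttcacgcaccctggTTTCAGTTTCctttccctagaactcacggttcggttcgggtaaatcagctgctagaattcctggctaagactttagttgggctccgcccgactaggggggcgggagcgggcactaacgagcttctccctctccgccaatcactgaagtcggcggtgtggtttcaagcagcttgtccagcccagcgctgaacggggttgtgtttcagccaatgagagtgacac
Bst2 (chr8:71537473-71537722, minus strand): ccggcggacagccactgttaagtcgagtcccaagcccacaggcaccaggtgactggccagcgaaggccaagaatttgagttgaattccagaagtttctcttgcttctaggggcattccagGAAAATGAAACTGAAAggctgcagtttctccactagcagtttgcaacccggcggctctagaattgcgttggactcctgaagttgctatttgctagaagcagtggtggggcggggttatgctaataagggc
Ifit2, first window (chr19:34550444-34550693, plus strand): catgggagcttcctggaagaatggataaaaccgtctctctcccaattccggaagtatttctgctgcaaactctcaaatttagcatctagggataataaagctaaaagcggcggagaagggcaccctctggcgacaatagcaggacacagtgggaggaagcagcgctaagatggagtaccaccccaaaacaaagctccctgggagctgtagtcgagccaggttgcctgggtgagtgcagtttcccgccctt
Ifit2, second window (chr19:34550838-34551087, plus strand): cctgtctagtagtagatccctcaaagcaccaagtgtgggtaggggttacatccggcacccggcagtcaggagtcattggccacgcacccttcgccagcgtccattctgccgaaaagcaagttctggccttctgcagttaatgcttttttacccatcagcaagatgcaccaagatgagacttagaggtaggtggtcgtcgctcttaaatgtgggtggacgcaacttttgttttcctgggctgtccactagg
The Isg15 window held 3 overlapping matches, the nearest ending 56 bases before the start. Bst2 held 2 overlapping matches, the nearer ending 114 bases before its start. Ifit3 held 2 separate matches, ending 146 and 112 bases before the start, and Stat2 held 1, ending 212 bases before it.

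Across all kept cells the 9 genes spanned a wide range of levels, with Ifi27 and Ifit2 at the top and Irf7 at the bottom in both pools. Levels are given as CPM, UMIs scaled to 1000000 in all, with an exact Poisson 95% interval that covers counting error only; as the method counts 1 end of each transcript, they were not divided by gene length. Ifi27, which encodes a small membrane protein of mitochondria, had 194 CPM in pool 1 (interval 189 to 199) and 178 CPM in pool 2 (174 to 182). Ifit2, an RNA-binding antiviral effector, had 53.8 and 54.5 CPM. These were the highest of the 9 in each pool. Irf9, the DNA-binding partner of Stat2, had 13.7 and 12.5 CPM. Stat2, the signal transducer specific to type I and type III interferon, had 12.1 and 9.51 CPM, and Rtp4, a receptor chaperone with antiviral activity, had 10.3 and 11.6 CPM. The order of Irf9, Stat2 and Rtp4 differed between the pools, and their means (13.1 ± 0.852, 10.8 ± 1.86 and 10.9 ± 0.917 CPM; SD, n = 2 pools) lay close together. Ifit3, another RNA-binding effector, had 7.48 CPM in pool 1 and 17.0 CPM in pool 2. Isg15, a ubiquitin-like protein that is attached to other proteins, had 5.68 and 8.33 CPM. Bst2, the surface protein tetherin, which holds budding virus on the cell, had 5.32 and 7.91 CPM. Irf7, the transcription factor that amplifies interferon production, was lowest in both pools, with 2.45 and 4.10 CPM.

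The members differed in how widely their transcripts were spread over cells. After each cell was thinned to 2000 UMIs, Ifi27 had a UMI in 27.2% of 3117 cells in pool 1 and 28.1% of 2874 cells in pool 2. Ifit2 had one in 10.1% and 9.19%. These 2 genes were the most widely detected, and the others were in few cells. Irf9 was found in 2.92% and 2.19%, Stat2 in 2.69% and 2.19%, and Rtp4 in 1.51% and 1.95%. Ifit3 was found in 0.866% and 1.64%, Isg15 in 0.578% and 0.939%, Bst2 in 0.834% and 0.870%, and Irf7 in 0.481% and 0.383%. Without thinning, the shares were higher, from 1.45% (Isg15) to 56.7% (Ifi27) in pool 1 and from 2.32% (Irf7) to 62.5% (Ifi27) in pool 2. Cells of 389 and 404 barcodes were too shallow to thin.

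A few cells held much of the RNA of Isg15, Ifit3, Bst2 and Irf7, although many of the cells with these genes held 1 UMI (27 of 51 and 45 of 90 cells with Isg15, and 60 of 90 and 88 of 167 cells with Ifit3). The 10 cells with most Isg15 UMIs held 115 of the gene's 190 UMIs in pool 1 (60.5%) and 160 of 337 in pool 2 (47.5%). For Ifit3 these shares were 54.0% and 39.3%, for Bst2 54.5% and 46.6%, and for Irf7 41.5% and 47.0%. The same count of cells held only 3.84% and 3.40% of the Ifi27 UMIs and 4.28% and 4.22% of the Ifit2 UMIs, and from 8.50% to 14.2% of those of Irf9, Stat2 and Rtp4. The highest single cell had 52 UMIs of Ifit3, 41 of Isg15 and 28 of Bst2, all in pool 2, while the tenth cell of these genes in pool 2 had 15, 8 and 7. The variance beyond counting, as the excess squared coefficient of variation of thinned counts, was 0.633 and 0.606 for Ifi27 and 0.897 and 1.32 for Ifit2. It was 93.1 and 81.1 for Isg15 and 71.2 and 59.5 for Ifit3. With another random thinning these were 38.0 and 115 for Isg15 and 114 and 46.5 for Ifit3, so the order of these 2 genes cannot be read from it.

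**Figure D1:**
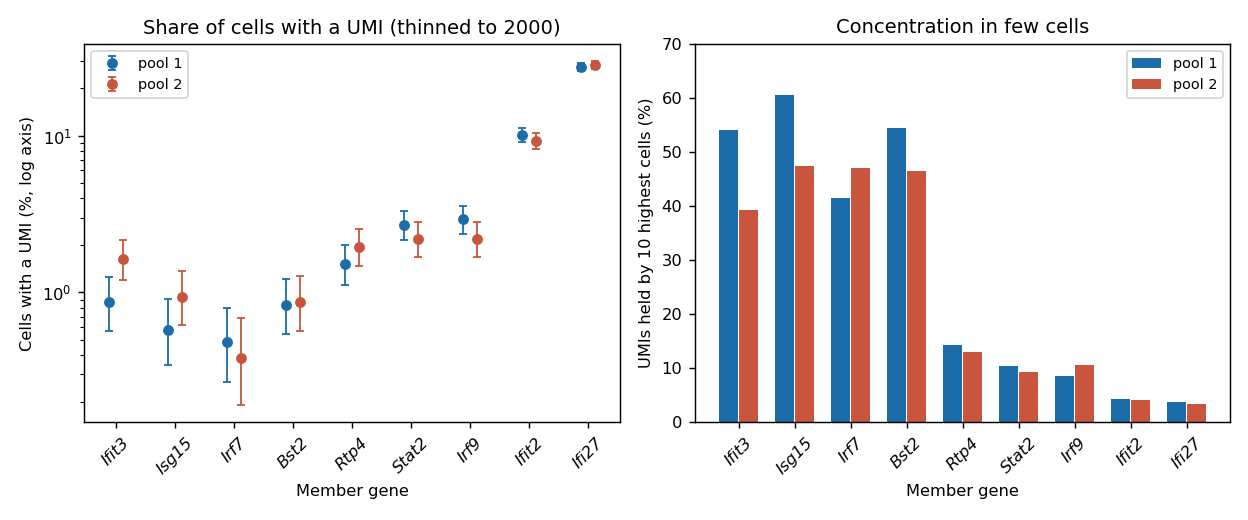
Left, the share of kept cells with a UMI of each member after thinning to 2000 UMIs per cell (percent, log axis, exact Clopper-Pearson 95% intervals); right, the share of each gene's UMIs that lay in its 10 highest cells (percent). Pools are coloured. Ifi27 and Ifit2 sit highest on the left and lowest on the right (under 5% of UMIs in 10 cells), whereas Ifit3, Isg15, Irf7 and Bst2 are in under 2% of cells and have from 39.3% to 60.5% of their UMIs in 10 cells.

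To ask which members rise in cells that show an interferon response, cells were called by other genes. A glial cell was called responding when it had UMIs of at least 2 of 15 other interferon-stimulated genes (such as Ifit1, Usp18, Rsad2 and Oasl2; 11 of the 15 were listed in each pool) after thinning to 2000 UMIs, and non-responding when it had none of them. No member was used in the call. Cells called responding were rare at this depth, at 15 of 3110 cells in pool 1 (0.482%, exact Clopper-Pearson 95% interval 0.270 to 0.794%) and 18 of 2861 in pool 2 (0.629%, 0.373 to 0.993%). The non-responding cells numbered 2915 and 2701, and 180 and 142 cells with 1 call gene were left out. The number called depended on depth, with 11 and 15 cells at 1000 UMIs and 33 and 54 cells at 5000 UMIs. The shares are therefore not a prevalence, and the non-responding class can hold responding cells whose call genes were missed. Without thinning, Isg15 had a UMI in 35 of the 2915 non-responding cells of pool 1 and 55 of the 2701 of pool 2. The call gene Herc6 had one in 228 and 216 of these non-responding cells, and the call gene Cmpk2 in 178 and 300. At 2000 UMIs, Herc6 was found in 87 of 3117 kept cells of pool 1 and 42 of 2874 of pool 2. The responding class and the class with 1 call gene can therefore also hold cells without an interferon response, and their number was not tested. Responding cells had medians of 10447 and 15520.5 UMIs, against 8688 and 12392 UMIs for non-responding cells; the part of this gap in the results was not tested.

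The members split into 7 that were induced and 2 that were basal. A member counts here as induced where its level was at least 4-fold higher in responding than in non-responding cells of each pool, and as basal where it was under 4-fold in each. Among all 13692 genes tested, 0.752% were at least 4-fold higher in each pool. Ifit3, Isg15, Irf7, Bst2, Rtp4, Stat2 and Irf9 met the rule for induced, and Ifit2 and Ifi27 the rule for basal. All 9 were called higher in responding cells (edgeR quasi-likelihood test, Benjamini-Hochberg adjusted p under 0.05), where 1.06% of all genes tested were called higher and 0.204% lower. The median log2 fold change of the 9 members was 4.21, beside -0.10 over all genes tested.

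Ifit3 had 731 CPM in responding cells of pool 1 and 886 CPM in those of pool 2, against 3.01 and 7.33 CPM in non-responding cells, 242-fold and 121-fold higher. Isg15 had 506 and 439.7 CPM in responding cells, against 3.08 and 3.77 CPM in non-responding cells, 164-fold and 117-fold higher. These effectors were near the floor outside the responding cells and among the most abundant members within them. The cells called responding, under 1% of the thinned cells, held 41.6% and 41.0% of all Isg15 UMIs and 45.6% and 40.4% of all Ifit3 UMIs. They held 1.19% and 1.38% of the Ifi27 UMIs. The log2 fold change was 7.33 ± 0.25 for Ifit3 and 7.06 ± 0.24 for Isg15 (SE of the fit, n = 2 pools). Taken singly, pools 1 and 2 gave 7.92 and 6.92 for Ifit3 and 7.36 and 6.87 for Isg15.

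The transcription factor Irf7 had 154 and 149.7 CPM in responding cells, against 1.52 and 2.09 CPM in non-responding cells (log2 fold change 6.35 ± 0.61 SE). Bst2 had 128 and 162 CPM in responding cells, against 3.99 and 4.17 CPM in non-responding cells (5.13 ± 0.48 SE). Rtp4 had 160.3 and 178 CPM in responding cells, against 9.01 and 8.99 CPM in non-responding cells (4.21 ± 0.34 SE). For all 9 members the responding values of both pools lay above both non-responding values, which held for 14.4% of all genes tested. In pool 1, however, Bst2 was found in only 3 of 15 responding cells, and 18 of its 20 UMIs came from 1 cell, whereas 12 of 18 responding cells of pool 2 had a Bst2 UMI. Without that cell Bst2 was 3.69-fold higher in pool 1 (interval 0.442-fold to 13.6-fold), under the 4-fold of the rule, so that its place among the induced members turned on 1 cell. Pool 2 without its highest cell gave 26.9-fold, and the other 6 induced members stayed above 4-fold in each pool without their highest cell (settings chosen after seeing the data).

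Both members of the signalling complex itself were higher in responding cells, from a measurable level in the others. Stat2 had 154 and 76.5 CPM in responding cells, against 11.1 and 8.48 CPM in non-responding cells, 13.8-fold and 9.02-fold higher (log2 fold change 3.44 ± 0.42 SE). Irf9 had 128 and 79.7 CPM in responding cells, against 12.5 and 10.9 CPM in non-responding cells, 10.2-fold and 7.31-fold higher (3.07 ± 0.41 SE). The adjusted p-values of the 7 induced members ran up to 1.86e-11 (Irf9). The fit left 1 residual degree of freedom, and with so few the spread between pools is poorly known. Without the pool as a block they ran from 1.61e-07 (Isg15) to 8.15e-04 (Stat2), and these 7 genes were called in each of the 13 alternative fits.

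The basal members were higher by less than 4-fold. Ifi27 had 494 and 315 CPM in responding cells, against 193 and 177 CPM in non-responding cells, 2.55-fold and 1.78-fold higher (log2 fold change 1.05 ± 0.21 SE, adjusted p = 6.08e-05). Ifit2 had 109 and 178 CPM in responding cells, against 53.2 and 53.3 CPM in non-responding cells, 2.05-fold and 3.35-fold higher (1.46 ± 0.25 SE, adjusted p = 1.42e-06). In pool 2, 25 of the 56 Ifit2 UMIs of responding cells came from 1 cell, and without that cell Ifit2 was 1.99-fold higher there (chosen after seeing the data). Ifit2 was found in 8 of 15 and 13 of 18 responding cells, and in 34.8% and 41.3% of non-responding cells. Both calls depended on the settings: Ifit2 missed the threshold with DESeq2 (adjusted p = 0.0723) and without cluster 3 (0.882), and Ifi27 missed it without the pool block (0.0805).

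**Figure D2:**
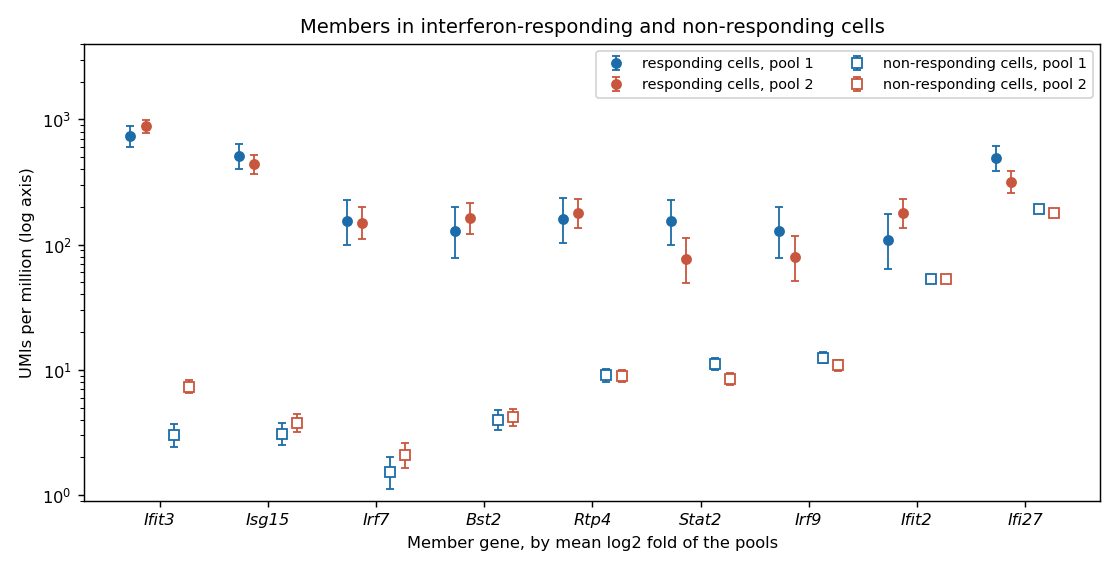
Level of each member (CPM, log axis) in responding cells (filled circles, 15 and 18 cells) and non-responding cells (open squares, 2915 and 2701 cells) of each pool, with exact Poisson 95% intervals; genes are ordered by mean log2 fold. The gap narrows from Ifit3 (242-fold and 121-fold) on the left to Ifi27 (2.55-fold and 1.78-fold) on the right, while the level in non-responding cells runs from 3.01 and 7.33 CPM for Ifit3 to 193 and 177 CPM for Ifi27.

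Members were then set against the number of call genes. The classes with 2 and with 3 or more call genes together are the responding cells by which the induced members were defined. Higher levels of the induced members there restate that rule, and only the class with 1 call gene adds cells. Cells with exactly 1 call gene, which the test left out, had 21.8 and 56.7 CPM of Ifit3 in pools 1 and 2, against 3.01 and 7.33 CPM in cells with none. Cells with 2 call genes had 596 and 1019 CPM of Ifit3, and those with 3 or more had 964 and 763 CPM. Isg15 was at 8.19 and 23.8 CPM with 1 call gene, 465 and 619.5 CPM with 2, and 578 and 275 CPM with 3 or more. The step lay between 1 and 2 call genes, and the 2 highest classes were in opposite order in the pools for both genes. Stat2 had 12.6 and 14.3 CPM with 1 call gene, where its interval (7.96 to 18.8 CPM) overlapped that of cells with none (9.97 to 12.4 CPM) in pool 1 and lay above it in pool 2 (9.64 to 20.4 CPM, against 7.57 to 9.47 CPM). Irf9 had 23.5 and 31.0 CPM with 1 call gene, above its 12.5 and 10.9 CPM in cells with none. Bst2 had 9.28 CPM with 1 call gene in pool 1, 10.1 CPM with 2 (1 UMI) and 333 CPM with 3 or more, and 32.4, 233 and 97.7 CPM in pool 2, so that no common order held beyond 1 call gene. Ifi27 with 1 call gene had 195 and 202 CPM, against 193 and 177 CPM in cells with none. Ifit2 had 62.3 and 59.6 CPM, against 53.2 and 53.3 CPM. The intervals overlapped for Ifit2 in both pools and for Ifi27 in pool 1. In pool 2 that of Ifi27 (184 to 223 CPM) lay above that of cells with none (173 to 182 CPM).

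**Figure D3:**
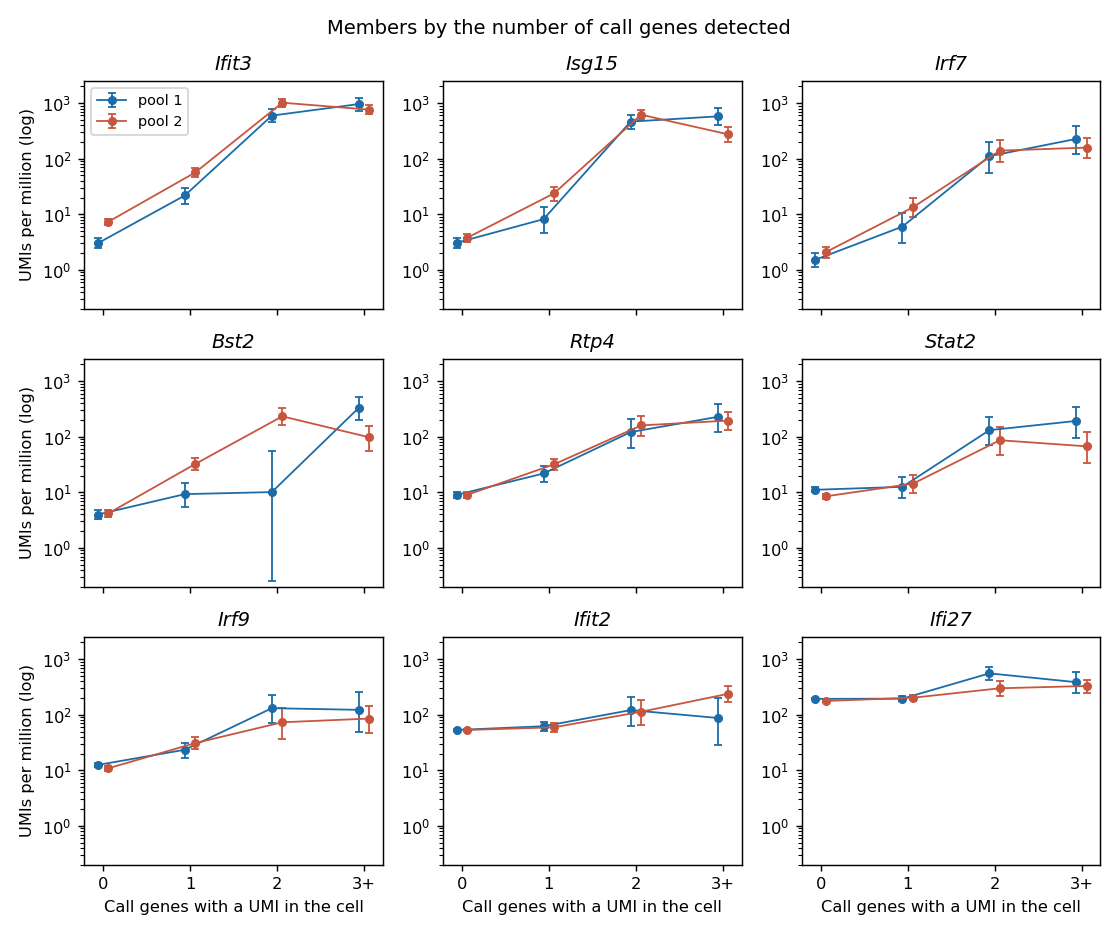
Level of each member (CPM, log axis) in glial cells with 0, 1, 2 and 3 or more call genes, for each pool, with exact Poisson 95% intervals; the 2 right-hand classes hold 10 and 5 cells in pool 1 and 10 and 8 in pool 2. These 2 classes together are the responding cells by which the induced members were defined. Ifit3, Isg15 and Irf7 stand higher with 2 or more call genes than with 1 or none in both pools. Ifit2 and Ifi27 are nearly level up to 1 call gene.

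Not every responding cell carried every induced member. Ifit3 had a UMI in 10 of 15 responding cells of pool 1 and 16 of 18 of pool 2, with a median of 4 and 10 UMIs per cell. Isg15 had one in 9 of 15 and 12 of 18, Irf7 in 8 of 15 and 8 of 18, Rtp4 in 9 of 15 and 15 of 18, Irf9 in 9 of 15 and 14 of 18, and Stat2 in 8 of 15 and 9 of 18. Isg15 and Ifit3 were also found together when none of the call genes was used. At 2000 UMIs, cells with an Ifit3 UMI had an Isg15 UMI in 5 of 27 cases in pool 1 (18.5%) and 10 of 46 in pool 2 (21.7%), against 0.422% and 0.568% of cells without Ifit3. The intervals of these shares (6.30 to 38.1% and 10.9 to 36.4%, against 0.225 to 0.720% and 0.325 to 0.921%) did not overlap. Bst2 was found in 0 of 27 cells with Ifit3 in pool 1 and 5 of 46 in pool 2, against 0.746% and 0.568% of cells without Ifit3. For Irf9 and Stat2 in pool 2 the intervals overlapped (2.42 to 20.8% for both, against 1.60 to 2.70% and 1.57 to 2.66%). Ifi27 was found in 37.0% and 45.7% of cells with Ifit3, against 27.1% and 27.9% of cells without it, and Ifit2 in 11.1% and 15.2%, against 10.1% and 9.09%. Of the 7 induced members, 0 had a UMI in 91.5% and 92.0% of thinned glial cells, 1 in 7.59% and 6.68%, and 2 in 24 and 26 cells, and no cell had more than 5.

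**Figure D4:**
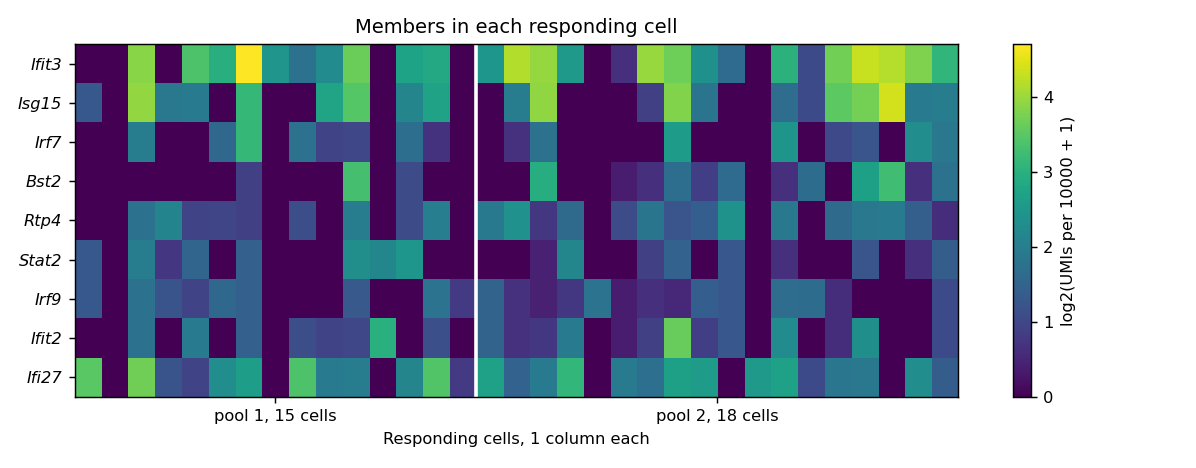
Each column is 1 responding cell (15 of pool 1, 18 of pool 2, in the order of the table) and each row a member; colour gives UMIs scaled to the depth of the cell, on a log2 scale. Ifit3 and Isg15 are brightest in overlapping sets of cells, 3 cells of pool 1 and 2 of pool 2 lack both, and Bst2 in pool 1 is carried by 1 bright cell.

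The genes whose counts followed the induced members most closely were other interferon-stimulated genes. Across 3491 and 3262 glial cells, the summed log-normalized counts of the 7 induced members had Pearson r of 0.51 in pool 1 and 0.57 in pool 2 with Ifit1, 0.50 and 0.52 with Usp18, 0.50 and 0.46 with Oasl2, and 0.44 and 0.57 with Ifit3b. Gbp3, Igtp, Parp14, Rsad2 and Ifih1 were also among the 10 highest of 13628 genes ranked by the lower of the pools, down to 0.29 and 0.38 for Ifih1. The basal members stood well below these, Ifi27 at 0.12 and 0.15 and Ifit2 at 0.09 and 0.09. Ifit1, Usp18, Oasl2 and Rsad2 were call genes, and the induced members were defined by their rise in cells with call genes. The high place of these genes and the low place of the basal members are therefore favoured by that choice in the same cells. These are descriptions over cells that share a library and differ in depth.

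Many other effectors of the interferon response were higher in the same cells. Of 65 effectors that were neither members nor used for the call, 40 were tested, 34 were called higher and 0 lower, and all 34 were higher in each pool. A gene could reach the minimum count of the test through its responding cells, so this count is a description of the genes tested and not of the whole list. Parp14, an ADP-ribosyltransferase, had 206 and 204 CPM in responding cells, against 0.714 and 0.535 CPM in non-responding cells (8.33 ± 0.53 SE). Gbp3, a guanylate-binding GTPase, had 283 and 242 CPM, against 5.65 and 5.08 CPM (5.57 ± 0.29 SE). The immunity-related GTPases Iigp1, Igtp and Ifi47, together with Gbp6, Ifit3b, Slfn8, Lgals9 and the RNA sensor Ifih1, were also called higher, by 5.52 (Lgals9) to 8.93 (Iigp1) on the log2 scale. These were named by a minimum of 20 CPM on average, which responding cells alone can reach, so their rank among all genes is not given. Of 13 nucleic acid sensors and their adaptors, 9 were tested and 3 were called higher. Ddx58, which encodes the RNA sensor RIG-I, had 148 and 150 CPM, against 13.4 and 11.1 CPM, and Tlr3 had 38.5 and 25.5 CPM, against 1.92 and 2.09 CPM.

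Receptor, signalling and inhibitor genes were looked at next. Irf1, a transcription factor of the pathway, had a log2 fold change of 2.23 ± 0.69 SE (adjusted p = 0.0884), and Ifnar2, a chain of the type I receptor, 0.67 ± 0.34 SE (0.824). Of 7 negative regulators 4 were tested, of which 0 were called by edgeR or DESeq2, and 1, Socs1, had an unadjusted p under 0.05 with either tool. Usp18, also a negative regulator, was not tested because it was a call gene. It had 212 and 178 CPM in responding cells, against 1.43 and 2.22 CPM, a gap that the call itself favours. Socs1 had 32.1 and 15.9 CPM in responding cells, against 3.25 and 3.26 CPM in non-responding cells (adjusted p = 0.271). Of 21 interferon genes searched for, 0 were listed in either table.

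Signs of other cell types were looked for in the responding cells. Of 12 microglia markers, 11 in pool 1 and 10 in pool 2 were at 0 there, C1qa and Csf1r among them. Csf1r, Ptprc (the pan-leukocyte gene) and Pecam1 (endothelial) had no UMI in any responding cell. Monocyte and dendritic markers summed to 6.41 and 44.6 CPM, against 6.42 and 4.49 CPM, from H2-Ab1 and, in pool 2, Plac8. Endothelial markers summed to 0 and 35.0 CPM, against 6.65 and 6.77 CPM, from Flt1 and Itm2a in pool 2, and the part of these in the members' levels was not tested. Olig2 had 673 and 465 CPM in responding cells, against 605 and 519 CPM in non-responding cells, and was detected in 15 of 15 and 16 of 18 responding cells. When cells with a UMI of any microglia marker were removed, 10 and 11 responding cells were left and the 7 induced members were again called.

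Not all genes that accompanied the response did so in both pools; the difference between pools was not tested. Of 145 genes called higher, 116 were higher in each pool. Genes known to respond to low oxygen were called in 11 of 19 cases, but only 5 of these 11 were higher in each pool. Vegfa, which drives vessel growth, had 32.1 CPM in responding cells of pool 1 and 290 CPM in those of pool 2, against 46.5 and 41.5 CPM in non-responding cells, and summed hypoxia genes had 1103 and 4543 CPM, against 1199 and 1210 CPM. In pool 2, 11 of 18 responding cells lay in cluster 3, led by Vgf, Hba-a1 and S100a10, whereas in pool 1 the 15 cells were spread over 8 clusters with at most 3 in each. Without cluster 3, 13 and 7 responding cells were left, Vegfa had a log2 fold change of -1.24 (adjusted p = 0.989), and the induced members ranged from 3.29 (Irf9) to 7.16 (Ifit3). The lower genes included the oligodendrocyte genes Mal, Ptgds and Mbp, at 0 to 12.8 CPM in responding cells of pool 1 and 0 to 25.5 CPM in those of pool 2, against 36.5 to 145 and 47.4 to 193 CPM in non-responding cells. The small mature oligodendrocyte-like cluster held no responding cell. Without the clusters named as other cell types, Ptgds had a log2 fold change of 1.02 (adjusted p = 0.992), while Mbp remained at -2.57 (6.12e-09).

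Between clusters, the members' calls that went the same way in both pools were all of the basal members. The 10 clusters with 20 or more cells from both pools were each set against the other 9, averaged, on counts held out from clustering (edgeR, 20 sums, pool as a block), and over all genes and clusters 15.4% of comparisons were called. Of the 90 comparisons of members, 13 were called, a share near that background. Of the 13, 8 went the same way in both pools (61.5%), 4 of Ifit2 and 4 of Ifi27, whereas 99.0% of the 17473 calls over all genes did. Irf9 and Stat2 were called in 0 clusters by edgeR and by DESeq2, although each had an unadjusted edgeR p under 0.05 in 2 clusters.

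Ifit2 and Ifi27 were far apart in cluster 9, which was led by Enpp6, Bmp4 and Mbp, genes of differentiating oligodendrocyte precursors. Ifit2 had 11.6 and 10.4 CPM in its 62 and 37 cells, the lowest level of the 10 clusters in each pool, beside a median over clusters of 55.8 and 53.6 CPM. The log2 fold change was -2.59 ± 0.39 SE (adjusted p = 1.12e-05; 9.31% of genes were called lower and 10.1% higher in this cluster), from 3 held-out UMIs in each pool. Ifi27 had 324 and 274 CPM there, the highest level of the 10 clusters, beside a median of 188 and 147 CPM (log2 fold change 0.81 ± 0.19 SE, adjusted p = 0.00263). Ifit2 was also higher in cluster 6, led by S-phase histone genes, at 66.5 and 65.5 CPM (0.79 ± 0.14 SE, adjusted p = 9.61e-05; 13.7% of genes called higher), in cluster 0 (0.44 ± 0.14 SE; 17.4% called higher) and in cluster 2 (0.46 ± 0.14 SE; 7.44%). The cluster 2 call of Ifit2 was lost with DESeq2 (adjusted p = 0.0850) and without the pool block (0.0843), and its log2 ratio was 0.26 and 0.27 in the pools. Ifi27 was higher in cluster 2, at 270 and 246 CPM (0.61 ± 0.15 SE), a call lost without the pool block (adjusted p = 0.0538). It was lower in cluster 1, at 138 and 128 CPM (-0.68 ± 0.20 SE; 16.7% of genes called lower), and in cluster 0, at 107 and 164 CPM (-0.61 ± 0.18 SE; 19.2%). The cluster 0 difference of Ifi27 came from pool 1, where its log2 ratio was -0.96, while that of pool 2 was -0.06 and its level lay above the median of the clusters. Clusters 0 and 1 were shallow, with median depths of 4323 and 6677 UMIs and of 2336 and 2094.5 UMIs, and the part of depth in these differences was not tested.

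The other 5 calls were in cluster 3 and rested on pool 2. Isg15 had 2.86 CPM there in pool 1 and 27.7 CPM in pool 2, Ifit3 had 3.77 and 48.8 CPM, Irf7 had 1.82 and 11.6 CPM, Bst2 had 4.55 and 19.3 CPM, and Rtp4 had 9.88 and 22.3 CPM. The fitted log2 fold changes ran from 0.94 (Rtp4, adjusted p = 0.0356) to 3.12 (Isg15, 0.00556), where 9.9% of genes were called higher. With DESeq2, Ifit3 kept its call (adjusted p = 0.0115), while Isg15 (0.0518), Bst2 (0.0581), Irf7 (0.101) and Rtp4 (0.157) lost theirs. Irf7 (0.0845) and Rtp4 (0.114) also lost it without the pool block. In pool 1 alone all 5 had lower values in cluster 3 than elsewhere, with log2 ratios from -1.40 (Isg15) to -0.26 (Ifit3). The highest Isg15 level of pool 1 was in cluster 6 (16.3 CPM), where pool 2 had 3.66 CPM.

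**Figure D5:**
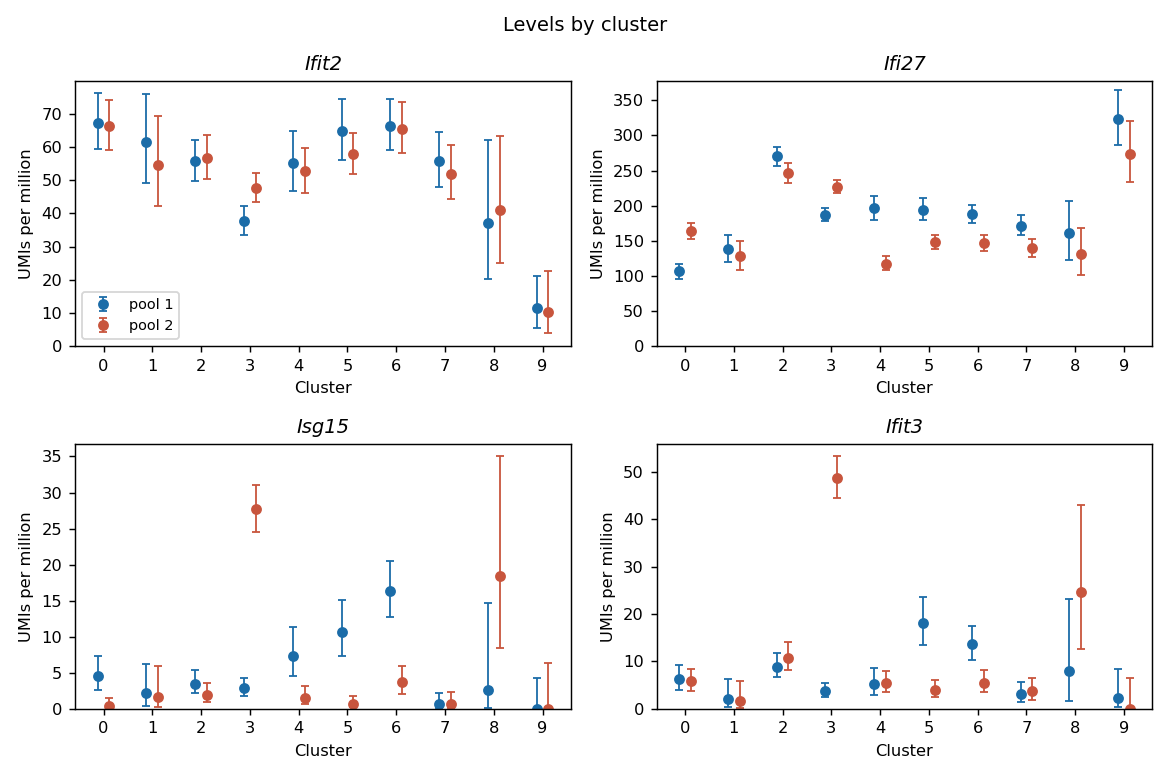
Levels of Ifit2, Ifi27, Isg15 and Ifit3 (CPM, linear axes from 0) in the 10 larger clusters, for each pool, with exact Poisson 95% intervals. Ifit2 is lowest and Ifi27 highest in cluster 9 in both pools, whereas the peak of Isg15 and Ifit3 in cluster 3 (27.7 and 48.8 CPM) is that of pool 2.

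Bst2 was the member most abundant in the microglia-like cells. It had 269 CPM in the 15 cells of pool 1 (interval 159 to 425) and 294 CPM in the 16 cells of pool 2 (213 to 396), against 5.32 and 7.91 CPM over all kept cells. These cells held 18 of the 178 and 43 of the 320 Bst2 UMIs. Ifi27 had 59.7 and 41.1 CPM in them. This cluster was too small for the test.

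Division was set against the members by the same design. Cycling glial cells (631 and 448), with UMIs of at least 2 of 10 core cycling genes, were compared with non-cycling cells (1831 and 1852), and 38.6% of 13725 genes tested were called, 20.5% higher and 18% lower. Of the members 1 was called higher and 3 lower, all changes under 1 on the log2 scale. Ifit2 had 60.3 and 59.1 CPM in cycling cells, against 51.6 and 53.6 CPM in non-cycling cells (log2 fold change 0.24 ± 0.08 SE, adjusted p = 0.0135). Ifi27 had 177 and 145 CPM, against 209 and 190 CPM (-0.26 ± 0.07 SE, 0.00246). Ifit3 had 7.12 and 7.73 CPM, against 8.04 and 20.5 CPM (-0.83 ± 0.19 SE, 7.59e-04), and Rtp4 had 8.36 and 8.19 CPM, against 11.8 and 12.1 CPM (-0.47 ± 0.16 SE, 0.0181). With DESeq2 0 of the 9 members were called (2 had an unadjusted p under 0.05), and likewise without the pool block (1 had). Isg15 and Bst2, which were not called, stood in opposite directions in the pools, with log2 ratios of 0.99 and -1.36 for Isg15 and 0.94 and -1.06 for Bst2. The share of cycling cells was 3 of 15 and 2 of 18 among responding cells, against 20.4% and 15.6% among non-responding cells, and with so few cells its intervals (4.33 to 48.1% and 1.38 to 34.7%) held those values.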

How the data were processed

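The deposited tables hold raw UMI counts per gene and barcode; per the submitters' processing notes, they were made with Cell Ranger 6.0.2 and GRCm38 (mm10). How it treated reads shared by Ifit3 and Ifit3b was not stated. Pool 1 held 33894255 UMIs in 3843 barcodes and pool 2 held 40909383 in 3650. Per the labels, 4000 cells per pool were partitioned. Barcodes with under 500 genes or over 15% mitochondrial UMIs were removed (337 and 372); no doublet caller was applied.

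Counts were divided binomially (probability 0.5); 1 part was clustered without interferon, antigen presentation, core cycling, mitochondrial, ribosomal and sex-linked genes (scanpy 1.11.5, 1000 variable genes, 30 components, 15 neighbours, Leiden resolution 0.8) and the other tested between clusters. UMIs were summed per pool and state or cluster and tested with edgeR 4.0.16 in R 4.3.3 (quasi-likelihood, TMM, filterByExpr, pool as a block, threshold 0.05); standard errors come from the fold and F statistic. Call genes were not called. Sums of a pool share tumours, and n is 2 pools. The p-values and standard errors rest on counting error and on a spread between sums that edgeR moderates over all genes. They are therefore not a measure of how far the 2 pools differ for a given gene. The labels do not say whether the pools share an animal. On simulated counts, 54.6% of genes changed by 2 and 68.7% of those changed by 4 (log2) were recovered for responding cells. Members and lists were chosen with earlier results of these data known. Named genes are the members, the 10 largest called changes each way that agree in sign in both pools with a mean of at least 20 CPM, up to 4 of smallest p per list, and the 10 best correlated. Alternatives included DESeq2 1.42.0, other thinning depths, call thresholds and clusterings. Results for some genes outside the members are not reported here.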

Additional observations from a re-analysis of the deposited data

How the results depend on the processing

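Of the genes called higher in responding cells, 145 in the fit reported, 76 were counted with DESeq2, 73 without the replicate block (pool), 71 with another thinning seed, 91 when at least 3 call genes were required and 66 without cluster 3 (chosen after seeing the data). The 28 called lower became 3, 3, 10, 12 and 11 under these settings, and 50 when 1 call gene sufficed. Ifit2 missed the threshold with DESeq2, with 1 call gene, without cells holding a microglia marker UMI and without cluster 3, and Ifi27 without the block, with 1 and with 3 call genes; both stayed higher. By cycling state the 2819 higher and 2473 lower genes became 1328 and 633 with DESeq2 and 1063 and 253 without the block. Between clusters the 10227 higher calls became 6632 without the block and 16175 at resolution 1.2. Without replicate 2 or replicate 1, the log2 ratios in cluster 3 were -1.40 to 3.03 (Isg15), -0.26 to 2.77 (Ifit3), -0.98 to 2.25 (Irf7), -0.34 to 1.52 (Rtp4) and -0.58 to 2.75 (Bst2), lower without pool 2; the cause was not tested. The summed level of the members, 304 CPM, was 303 CPM with all barcodes, 309.8 CPM at 5% mitochondrial UMIs at most, and 303.3 to 304.6 CPM by pool. Thinning to 5000 UMIs raised the shares of cells, for Ifit2 to 22.4% on average. A block of pool and cluster together was not run, as 0 clusters held 5 cells of each state in each pool, and with 1 pool left out no test was possible for lack of residual degrees of freedom. With 15 and 18 responding cells, changes of genes with few UMIs may have gone undetected.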
